A study of Arabidopsis thaliana with 16 samples.

Results

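The 34 genes described here encode the Aux/IAA repressors and the TIR1/AFB receptors of the auxin response in Arabidopsis thaliana. They were chosen by locus code as IAA1 to IAA20, IAA26 to IAA34, TIR1, AFB1, AFB2, AFB3 and AFB5. All 34 were measured, each by 1 probe set, among 27826 probe sets in all; 29 are Aux/IAA genes and 5 are receptor genes. Expression was measured in leaves of soil-grown plants aged 6 weeks, grown in short days (8.5 h of light) at 22 °C, or 18 °C in the dark, without treatment. The 4 genotypes had 4 arrays each, 16 in all. They were the wild type (WT), amiNAA10, in which an artificial microRNA lowers NAA10, and 2 lines with a T-DNA inserted in HYPK, named here after exon 1 and exon 2, the exons given in the sample titles. NAA10 is the catalytic subunit of NatA, the enzyme that acetylates the amino terminus of many new proteins, and HYPK is a small protein that binds NatA. The knockdown was a single line, its promoter is not given in the sources used here, and each HYPK line was a single insertion line. Whether each of the 4 samples came from its own plant, from a pool or from a repeat preparation is not in the labels, so p-values measure the spread among samples only, and some of that spread may be technical.

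Auxin acts as a molecular glue between a TIR1/AFB F-box protein and a short motif of the Aux/IAA proteins, the degron. The receptor belongs to an SCF ubiquitin ligase, and the bound Aux/IAA protein is ubiquitinated and destroyed by the proteasome. Without auxin, Aux/IAA proteins hold auxin response factors (ARFs) at their target genes and recruit TOPLESS corepressors; many Aux/IAA genes are themselves induced by auxin, which makes them a negative feedback on the response.

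All values are expression values on the log2 scale, computed with robust multi-array averaging (RMA), and each difference is the first genotype minus the second. "Called" means an adjusted p under 0.05 in limma after Benjamini-Hochberg adjustment over all 27826 probe sets, and intervals are 95% confidence intervals of a difference. The NAA10 probe set was lower in amiNAA10 (2.89 ± 0.16, SD, n = 4) than in WT (4.96 ± 0.10), a difference of -2.07 with an SE of 0.12 and an adjusted p of 2.46e-08. HYPK was lower in the exon 1 line (4.72 ± 0.14 against 5.66 ± 0.08 in WT, adjusted p = 0.000155), whereas the exon 2 line stood at 5.40 ± 0.27 (difference -0.26, adjusted p = 0.191); where its probes lie relative to either insertion was not analysed here. The 8 leaf mesophyll markers had WT means from 3.98 to 12.8, and all 5 flower markers had means below 1.83, the upper limit of the dimmest 30% of probe sets. Within a genotype, Pearson's r between arrays ran from 0.974 to 0.990 across probe sets. Exon 2 replicate 4 stood apart from the other arrays of its line on the first principal component, at -44.3 against -1.87 to 15.5, and was the lowest array of that line for 15 of the 34 genes, beside 31.8% of all probe sets. Replicate 2 of amiNAA10 stood at -57.4 on that component against -34.9 to -30.9 for the other arrays of its line, and was the lowest of them for 20 of the 34 genes, beside 27.8% of all probe sets. The exon 1 line was also spread on that component, with replicates 2 and 3 at -32.5 and -27.2 and replicates 1 and 4 at -0.01 and -5.34. Its replicate 2 was the lowest array of the line for 12 of the 34 genes, beside 27.3% of all probe sets. The file holds no detection call; 6 of the 34 genes (IAA6, IAA15, IAA20, IAA30, IAA31 and IAA34) had a mean over all arrays below 1.83, where a difference may understate the real one.

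In amiNAA10 leaves, 13 of the 34 genes were lower than in WT and none was higher. This is 38.2% of the genes, while 30.7% of all probe sets were called in this comparison, 15.4% higher and 15.4% lower. The 13 were 12 of the 23 Aux/IAA genes whose proteins carry the usual degron, led by IAA17, IAA3, IAA1 and IAA5, and the receptor gene AFB3. None of the 6 Aux/IAA genes whose proteins lack the usual degron or carry a degenerate one (IAA20 and IAA30 to IAA34) was called by limma, and 0 of these 6 had an unadjusted p under 0.05 in any comparison; IAA20, IAA30, IAA31 and IAA34 lie in the dimmest class. The arrays of both genotypes did not overlap for 12 genes that were lower and 1 that was higher in amiNAA10, and 30.6% of all probe sets had such separate arrays, 15.3% lower and 15.4% higher. The median difference over the 34 genes was -0.32, and over all probe sets it was -0.02. The number of genes called fell to 8 when amiNAA10 replicate 2 was left out. In whole leaves, fewer cells of a type and less RNA per cell cannot be told apart.

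IAA17 (AXR3, AT1G04250), whose stabilised mutant form makes plants strongly auxin resistant, showed the largest difference. Its values on the WT arrays were 6.69, 6.56, 6.91 and 6.67, and those on the amiNAA10 arrays were 4.68, 4.20, 4.57 and 4.98. The exon 1 line gave 5.66, 5.41, 5.50 and 5.23, and the exon 2 line gave 5.88, 5.68, 5.28 and 5.24. Every WT array stood above all arrays of the other genotypes, and every amiNAA10 array stood below all HYPK arrays. The difference of amiNAA10 from WT was -2.10 (SE 0.17, interval -2.46 to -1.74, adjusted p = 6.81e-07), which is 23.3% of the WT level.

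IAA3 (SHY2, AT1G04240), a repressor through which cytokinin restrains auxin responses in the root, was low in the knockdown line. The WT arrays had 5.51, 5.87, 6.08 and 5.93, and the amiNAA10 arrays had 3.86, 4.03, 3.97 and 4.45. In the exon 1 line the arrays had 5.94, 5.24, 5.18 and 6.11, and in the exon 2 line 5.09, 5.14, 5.90 and 5.24. The amiNAA10 arrays lay below all 12 other arrays, while both HYPK lines overlapped with WT. IAA3 fell to 29.3% of WT in amiNAA10 (difference -1.77, SE 0.23, adjusted p = 2.75e-05).

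IAA1 (AXR5, AT4G14560), an early auxin-induced gene, had WT values of 5.95, 5.84, 5.32 and 4.89 and amiNAA10 values of 3.97, 3.55, 3.77 and 3.80. The exon 1 line had 4.36, 3.93, 4.50 and 3.96, and the exon 2 line had 4.83, 4.59, 4.29 and 3.59. All arrays of the 3 other genotypes lay below the lowest WT array, and amiNAA10 overlapped with both HYPK lines. In amiNAA10 IAA1 was at 30.2% of WT (difference -1.73, SE 0.25, adjusted p = 9.14e-05).

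IAA5 (AT1G15580), also an early auxin-induced gene, was dimmer. Its WT values were 3.04, 2.62, 2.84 and 2.96, and the amiNAA10 values were 1.84, 1.71, 1.61 and 2.06. The HYPK exon 1 values were 2.28, 2.29, 2.17 and 2.18, and the exon 2 values were 2.54, 2.40, 2.45 and 2.28. The order was WT above both HYPK lines and these above amiNAA10, without overlap between these 3 levels. The amiNAA10 mean of 1.80 lies in the dimmest class, and the difference from WT was -1.06 (SE 0.12, adjusted p = 9.57e-06).

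**Figure D1:**
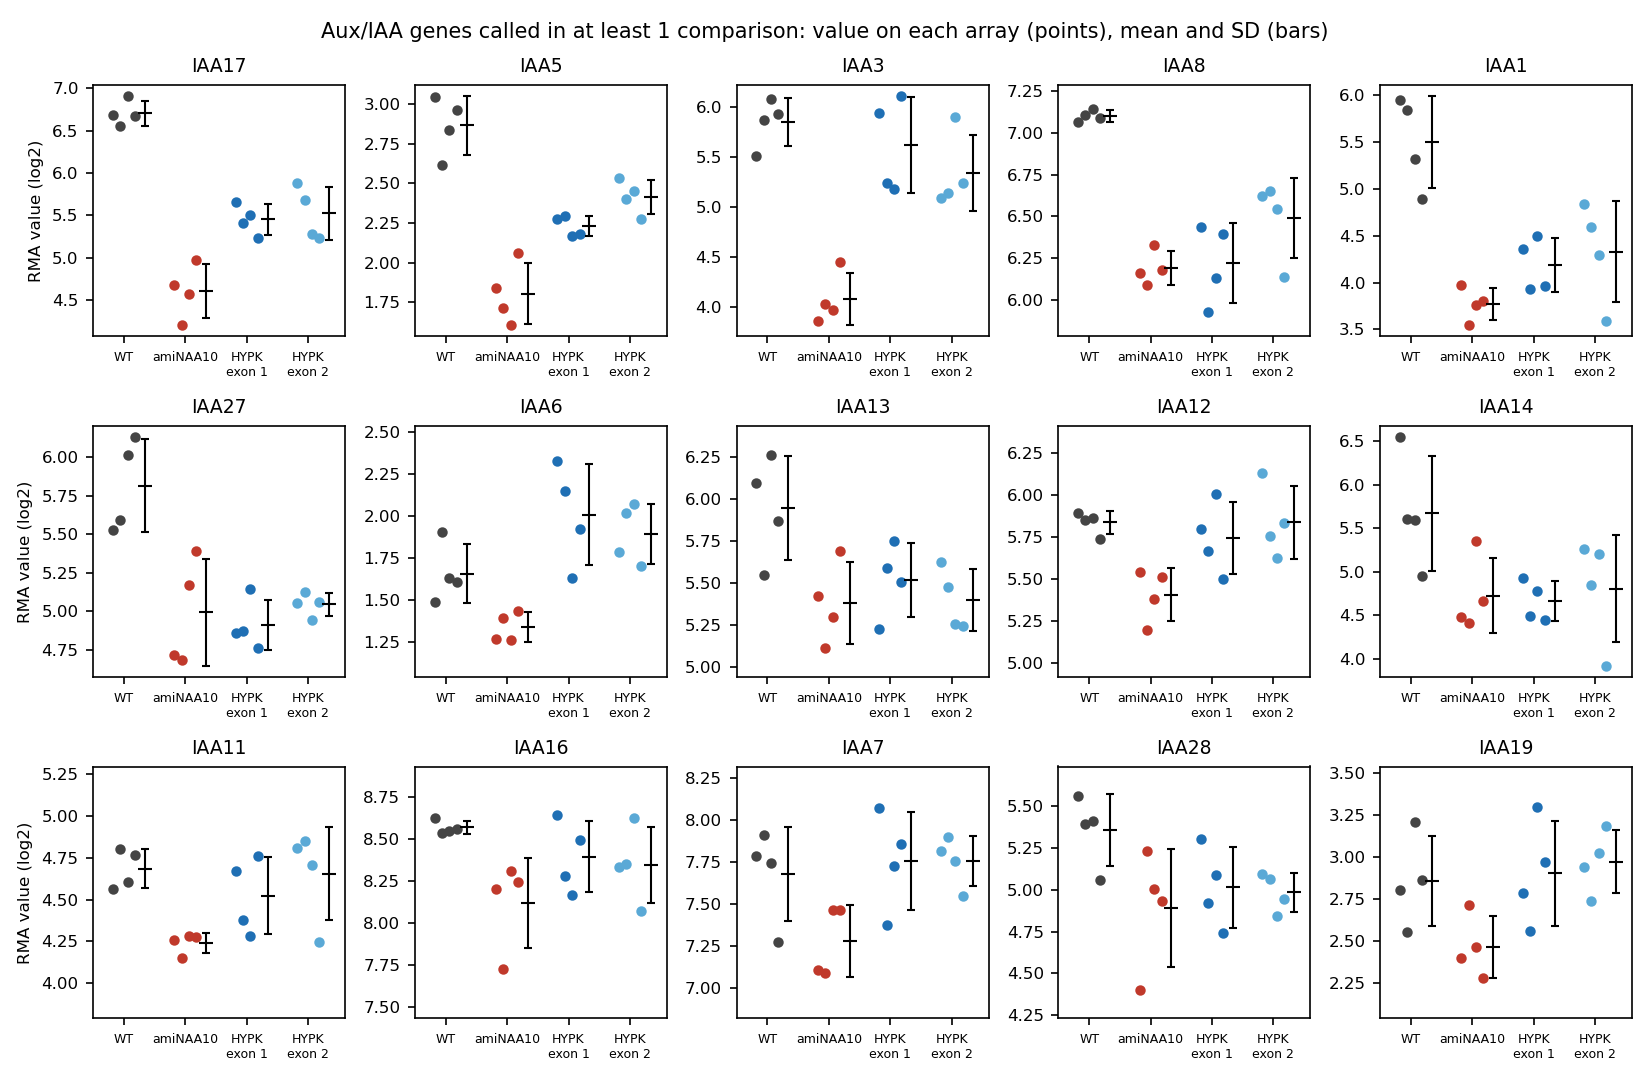
RMA values on the log2 scale (vertical axis) of Aux/IAA genes in WT, amiNAA10 and the HYPK exon 1 and exon 2 lines; each point is 1 array and the bars are the mean and SD of 4 arrays. For IAA17 and IAA5 the HYPK arrays lie between WT and amiNAA10, whereas for IAA3 they overlap with WT.

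IAA8 (AT2G22670) and IAA27 (PAP2, AT4G29080, a phytochrome-associated protein) are close relatives of IAA9. IAA8 had WT values of 7.06, 7.11, 7.14 and 7.09 and amiNAA10 values of 6.16, 6.09, 6.33 and 6.18. Its exon 1 values were 6.44, 5.93, 6.13 and 6.40, and its exon 2 values were 6.62, 6.65, 6.55 and 6.14. The WT arrays were the tightest and the highest set, and the other genotypes overlapped with each other. IAA27 had 5.52, 5.59, 6.01 and 6.13 in WT and 4.72, 4.69, 5.17 and 5.39 in amiNAA10. The HYPK exon 1 arrays had 4.86, 4.87, 5.14 and 4.76, and the exon 2 arrays had 5.05, 5.13, 4.95 and 5.06. Again only WT stood apart. The differences of amiNAA10 from WT were -0.91 for IAA8 (SE 0.13, adjusted p = 7.97e-05) and -0.82 for IAA27 (SE 0.17, adjusted p = 0.00125), whereas IAA9 was not called (0.08, interval -0.19 to 0.36).

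A further 6 Aux/IAA genes were called lower in amiNAA10 with smaller differences. IAA14 (SLR, AT4G14550, which blocks lateral root initiation when stabilised) had 6.55, 5.60, 5.60 and 4.95 in WT, 4.48, 4.41, 5.35 and 4.66 in amiNAA10, 4.93, 4.49, 4.78 and 4.45 in the exon 1 line, and 5.26, 4.85, 5.21 and 3.92 in the exon 2 line. Its WT arrays spread most of all genes printed here and overlapped with amiNAA10 and with the exon 2 line; the difference of amiNAA10 from WT was -0.95 (SE 0.32, adjusted p = 0.032). IAA13 (AT2G33310) had 6.10, 5.55, 6.27 and 5.87 in WT, 5.42, 5.11, 5.30 and 5.70 in amiNAA10, 5.23, 5.59, 5.75 and 5.51 in the exon 1 line, and 5.63, 5.48, 5.26 and 5.25 in the exon 2 line. All genotypes overlapped, and the difference of amiNAA10 was -0.56 (SE 0.17, adjusted p = 0.0155). IAA12 (BDL, AT1G04550), the close relative of IAA13 and a repressor in the early embryo, had 5.90, 5.85, 5.86 and 5.74 in WT, 5.54, 5.20, 5.38 and 5.51 in amiNAA10, 5.80, 5.67, 6.01 and 5.50 in the exon 1 line, and 6.13, 5.76, 5.63 and 5.83 in the exon 2 line. Its amiNAA10 arrays lay below all WT arrays (difference -0.43, SE 0.13, adjusted p = 0.0182), and both HYPK lines overlapped with WT.

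IAA11 (AT4G28640) had 4.57, 4.80, 4.61 and 4.76 in WT, 4.26, 4.15, 4.28 and 4.27 in amiNAA10, 4.67, 4.38, 4.28 and 4.76 in the exon 1 line, and 4.81, 4.85, 4.71 and 4.25 in the exon 2 line. IAA16 (AT3G04730) had 8.63, 8.54, 8.55 and 8.56 in WT, 8.20, 7.72, 8.31 and 8.24 in amiNAA10, 8.64, 8.28, 8.17 and 8.49 in the exon 1 line, and 8.33, 8.35, 8.63 and 8.07 in the exon 2 line. Both genes had all amiNAA10 arrays below all WT arrays, at -0.44 for IAA11 (SE 0.14, adjusted p = 0.0221) and -0.45 for IAA16 (SE 0.15, adjusted p = 0.0268), while the HYPK arrays overlapped with WT. IAA28 (AT5G25890), a repressor known from lateral root founder cells, had 5.56, 5.39, 5.41 and 5.06 in WT, 4.40, 5.23, 5.004 and 4.93 in amiNAA10, 5.30, 4.92, 5.09 and 4.74 in the exon 1 line, and 5.09, 5.06, 4.84 and 4.94 in the exon 2 line. The groups overlapped, and the difference of amiNAA10 was -0.46 (SE 0.17, adjusted p = 0.0437).

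The calls of these 6 genes rested on few arrays. Without amiNAA10 replicate 2, the adjusted p became 0.0918 for IAA14, 0.0585 for IAA13, 0.0673 for IAA12, 0.0601 for IAA11 and 0.105 for IAA16. Leaving out another single array also ended a call: WT replicate 3 for IAA13 (0.0585), WT replicate 2 or 4 for IAA11 (0.0602 and 0.0533) and WT replicate 1 for IAA16 (0.0613). For IAA14 these were WT replicate 1, 2 or 3 (0.119, 0.0529 and 0.054) and amiNAA10 replicate 1 or 4 (0.0828 and 0.063). IAA28 lost its call without any of 9 arrays, and its difference shrank to -0.30 (adjusted p = 0.163) without amiNAA10 replicate 1. The other arrays were amiNAA10 replicates 3 and 4 (0.055 and 0.0658), WT replicates 1, 2 and 3 (0.121, 0.0845 and 0.0897), exon 1 replicates 2 and 3 (0.0509 and 0.0519) and exon 2 replicate 2 (0.0511), and the fit of only the arrays compared ended it too (0.0769). By contrast, the calls of IAA17, IAA3, IAA1, IAA5, IAA8 and IAA27 in amiNAA10 held under every alternative run.

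Several further Aux/IAA genes had intervals below 0 in amiNAA10 but were not called. IAA29, which is auxin-inducible and known from shade responses, had the largest such difference, at -0.75 (interval -1.40 to -0.10, adjusted p = 0.0766), with all amiNAA10 arrays below all WT arrays. At the same difference it was called with only the 8 arrays compared in the fit (adjusted p = 0.00512) and without exon 1 replicate 2 (0.0477), exon 1 replicate 4 (0.032) or exon 2 replicate 1 (0.0481), and with array weights at -0.81 (0.0455). Over the 14 Aux/IAA genes that were called in no comparison, the differences of amiNAA10 from WT ran from -0.75 in IAA29 to 0.26 in IAA2.

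IAA17, IAA1, IAA27, IAA8 and IAA5 were called lower than in WT in each HYPK line. These comparisons share the WT arrays with each other and with the knockdown comparison. In the exon 1 line 6 Aux/IAA genes were lower and 1 receptor gene, AFB2, was higher; this is 20.6% of the 34 genes, beside 19.6% of all probe sets (9.89% lower and 9.69% higher). The arrays were separate from WT for 9 genes, 2 above and 7 below, and for 22.4% of all probe sets (11.3% above and 11.2% below). In the exon 2 line 6 Aux/IAA genes were lower and none was higher, which is 17.6% of the genes beside 13.8% of all probe sets (6.82% lower and 7.03% higher). There the arrays were separate for 7 genes, all below WT, and for 17.2% of all probe sets (8.29% below and 8.92% above). With the lines averaged, 8 genes were called against WT (7 lower, 1 higher), which is 23.5% beside 22.7% of all probe sets (11.5% lower and 11.2% higher). For 5 genes all 8 HYPK arrays lay below all WT arrays, and this was so for 5.92% of all probe sets, while 6.52% lay above (12.4% in all). Counted in either direction, the shares called were near those of all probe sets in both lines, while most of the calls were lower. The median difference over the 34 genes was -0.11 in the exon 1 line and -0.02 in the exon 2 line.

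IAA17 fell by 1.26 in the exon 1 line (SE 0.17, adjusted p = 0.000162) and by 1.19 in the exon 2 line (adjusted p = 0.000419). IAA1 fell by 1.31 (adjusted p = 0.00192) and by 1.17 (adjusted p = 0.00671) in the same order. Both genes were thus lower in each line, and for IAA17, IAA1, IAA27 and IAA8 all arrays of both lines lay below all WT arrays. IAA27 differed by -0.91 (adjusted p = 0.00141) in the exon 1 line and by -0.77 (adjusted p = 0.00689) in the exon 2 line. IAA8 differed by -0.88 (adjusted p = 0.000346) and -0.61 (adjusted p = 0.00661), and IAA5 by -0.64 (adjusted p = 0.00147) and -0.45 (adjusted p = 0.0187). IAA5 completed the set of 5 with no array of either line reaching the WT arrays; its call in the exon 2 line ended without exon 2 replicate 4 (adjusted p = 0.0656) or WT replicate 1 (adjusted p = 0.0612), and with only the arrays compared (adjusted p = 0.0539).

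IAA14 was called lower in the exon 1 line (-1.01, SE 0.32, adjusted p = 0.0339) but not in the exon 2 line (-0.87, adjusted p = 0.0822). Its call in the exon 1 line ended without any of 6 arrays: exon 1 replicate 2, 3 or 4 (adjusted p 0.0854, 0.059 and 0.0783) or WT replicate 1, 2 or 3 (0.117, 0.059 and 0.061). In the mean of both lines IAA14 differed by -0.94 (adjusted p = 0.0213), and without WT replicate 1 by -0.65 (adjusted p = 0.104). IAA13 was called in the exon 2 line (-0.54, adjusted p = 0.0378) and not in the exon 1 line (-0.43, adjusted p = 0.0822). In the exon 2 line its call ended without exon 2 replicate 2, 3 or 4 (adjusted p 0.0517, 0.0939 and 0.112) or WT replicate 1, 3 or 4 (0.0988, 0.121 and 0.0527), with array weights (0.0542) and with only the arrays compared (0.0709). In the mean of both lines (-0.49, adjusted p = 0.022) it ended without WT replicate 1 (0.0751) or WT replicate 3 (0.1). The line without a call passed the threshold in some fits. IAA13 did so in the exon 1 line without WT replicate 2 (-0.56, adjusted p = 0.0291). IAA14 did so in the exon 2 line without WT replicate 4 (-1.11, adjusted p = 0.0309) and with a replicate block (0.0346). Neither gene's difference between the insertion lines was called, so the unequal calls do not show that the lines differ.

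A further 3 genes without a call lay close to the threshold in a comparison of the HYPK lines with WT, on the higher side. IAA18 stood at 0.33 (interval 0.09 to 0.58, adjusted p = 0.0501). It passed the threshold without the dimmest 30% of probe sets (0.0408), exon 1 replicate 2 or 3 (0.041 and 0.044), exon 2 replicate 1 (0.0288) or WT replicate 2 (0.031), and 3 such alternatives also gave a call in the exon 1 line (adjusted p 0.0346 to 0.048). IAA26 (PAP1, another phytochrome-associated protein) stood at 0.49 (interval 0.09 to 0.89, adjusted p = 0.0733). IAA26 passed the threshold without exon 2 replicate 4 (0.58, adjusted p = 0.0264) or WT replicate 4 (0.64, adjusted p = 0.0303). IAA6 (SHY1) stood at 0.35 in the exon 1 line (adjusted p = 0.0977) and passed without exon 1 replicate 3 (0.48, adjusted p = 0.0287), and its mean over all arrays lies in the dimmest class. On the lower side, IAA28 was not called in the HYPK mean with all arrays. It passed the threshold there without amiNAA10 replicate 1 (-0.36, adjusted p = 0.0444) or WT replicate 4 (-0.46, adjusted p = 0.0455).

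**Figure D2:**
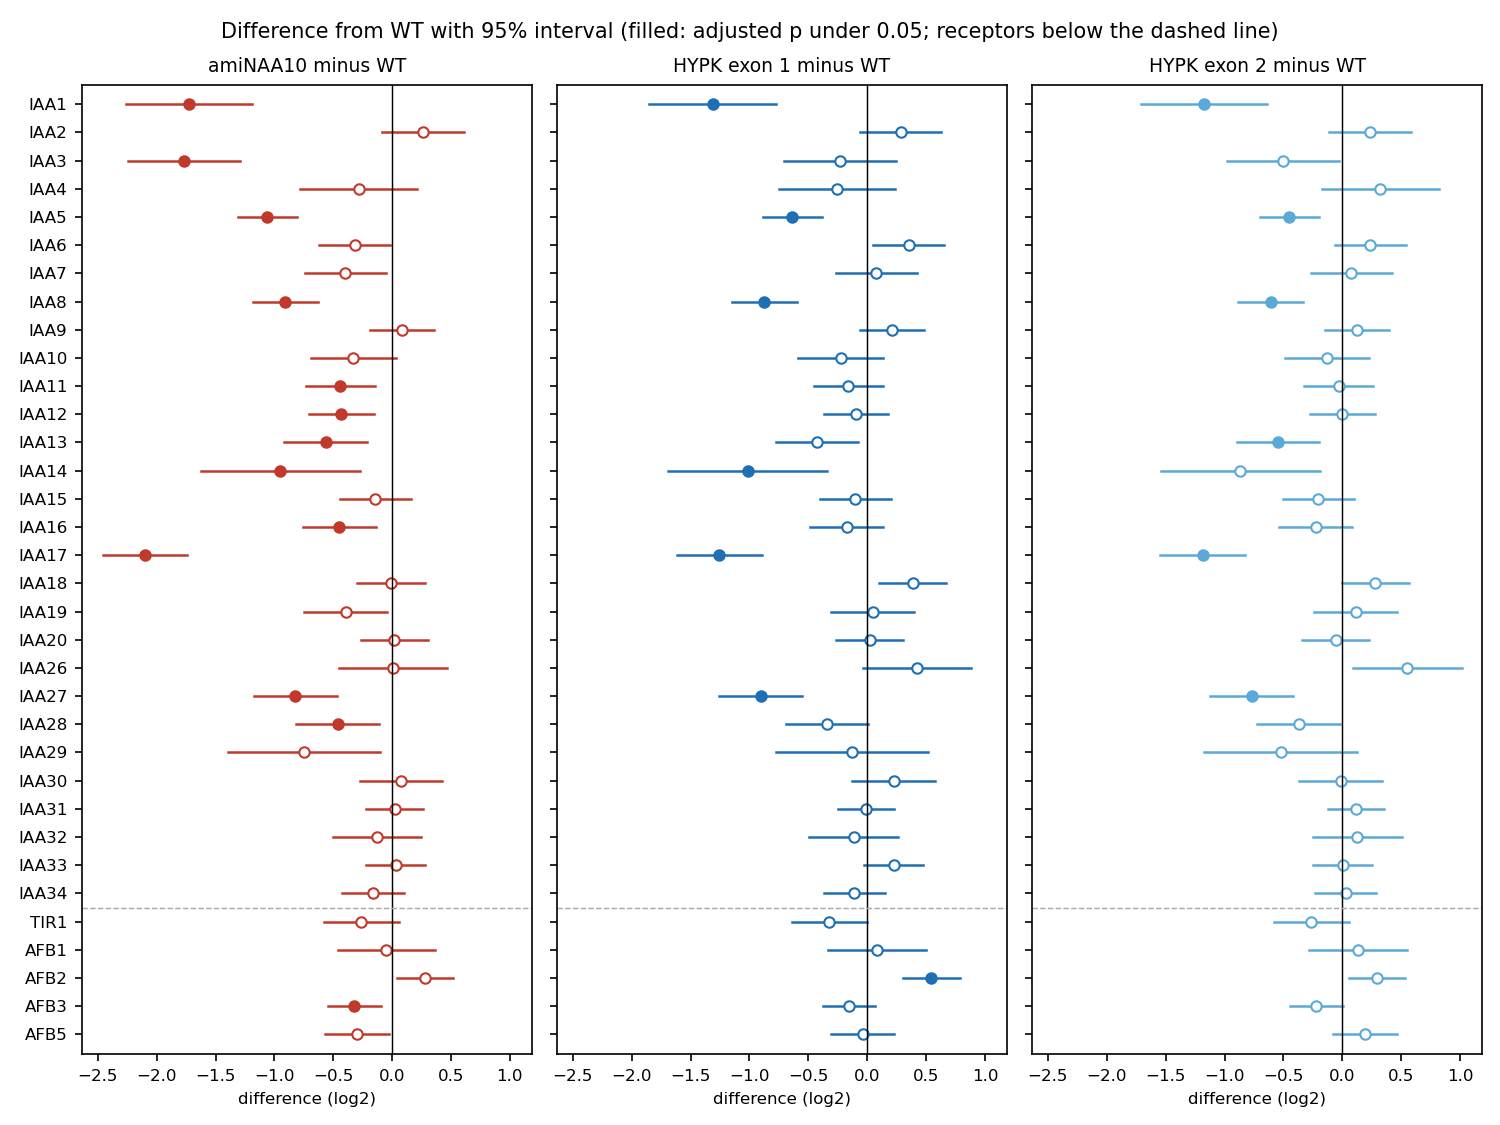
Difference from WT on the log2 scale (horizontal axis) of all 34 genes in amiNAA10, the exon 1 line and the exon 2 line, with 95% intervals from the linear model; filled points had an adjusted p under 0.05. Filled points lie left of 0 for Aux/IAA genes, and the only filled point to the right is AFB2 in the exon 1 line.

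In the direct comparison between the knockdown and the insertion lines, the mean of both HYPK lines was higher than amiNAA10 for 8 genes and lower for none. This is 23.5% of the 34 genes, beside 10.2% of all probe sets called with 5.34% higher and 4.9% lower. For 4 genes (IAA3, IAA17, IAA6 and IAA5) all 8 HYPK arrays lay above all amiNAA10 arrays, and 6.65% of all probe sets were separate (3.5% above and 3.16% below). The median difference was 0.16 over the 34 genes and 0.01 over all probe sets. In the same comparison 5 of 8 mesophyll and 3 of 6 vascular markers were called higher, and their part in the result was not tested. The count was sensitive to single arrays: it fell to 4 without amiNAA10 replicate 2 or 3, exon 1 replicate 1 or 3, or exon 2 replicate 1, and to 5 without exon 1 replicate 4, exon 2 replicate 3 or WT replicate 1.

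IAA3 differed most, by 1.40 (SE 0.20, interval 0.99 to 1.81, adjusted p = 0.000476), a level 2.64-fold that of amiNAA10. IAA17 differed by 0.88 (SE 0.15, interval 0.57 to 1.19, adjusted p = 0.00163) and IAA5 by 0.52 (SE 0.10, adjusted p = 0.00463). For IAA17 and IAA5 both mutant genotypes were below WT, with amiNAA10 the lower, whereas for IAA3 the HYPK mean was not called against WT (-0.37, interval -0.78 to 0.04, adjusted p = 0.197). By line, IAA3 differed from WT by -0.23 in the exon 1 line (interval -0.71 to 0.25), without a call. In the exon 2 line it differed by -0.51, with an interval below 0 (-0.98 to -0.03) but no call (adjusted p = 0.15). IAA6 (AT1G52830) had 1.49, 1.91, 1.63 and 1.61 in WT, 1.27, 1.39, 1.26 and 1.44 in amiNAA10, 2.33, 2.15, 1.63 and 1.92 in the exon 1 line, and 1.79, 2.02, 2.07 and 1.70 in the exon 2 line. Its HYPK arrays all lay above the amiNAA10 arrays and overlapped with WT, and the difference was 0.61 (SE 0.12, adjusted p = 0.00537) at dim values. These 4 calls held under every alternative run.

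IAA7 (AXR2, AT3G23050), a relative of IAA14 and IAA17, had 7.79, 7.91, 7.74 and 7.28 in WT, 7.10, 7.09, 7.46 and 7.46 in amiNAA10, 8.07, 7.38, 7.72 and 7.86 in the exon 1 line, and 7.82, 7.90, 7.76 and 7.55 in the exon 2 line. IAA19 (MSG2, AT3G15540, which acts with ARF7 in hypocotyl growth) had 2.80, 2.55, 3.21 and 2.86 in WT, 2.39, 2.71, 2.46 and 2.28 in amiNAA10, 2.79, 2.56, 3.30 and 2.97 in the exon 1 line, and 2.94, 2.74, 3.02 and 3.19 in the exon 2 line. For both genes 1 HYPK array, exon 1 replicate 2, reached into the range of amiNAA10 while the other HYPK arrays lay above it, and neither gene was called against WT in any line in the main fit. In amiNAA10, IAA7 was called lower than in WT with array weights (adjusted p = 0.0409) and without WT replicate 4 (-0.53, adjusted p = 0.0191). IAA19 was called lower there without WT replicate 2 (-0.49, adjusted p = 0.0432). The HYPK mean was above amiNAA10 by 0.48 for IAA7 (adjusted p = 0.0415), by 0.47 for IAA19 (adjusted p = 0.0456) and by 0.38 for IAA12 (adjusted p = 0.0396).

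Those 3 calls, each close to the threshold, ended without single arrays. For IAA7 the 10 arrays were amiNAA10 replicates 1, 2 and 3 (adjusted p 0.126, 0.153 and 0.06), exon 1 replicates 1, 3 and 4 (0.072, 0.0574 and 0.0681), exon 2 replicates 1, 2 and 3 (0.0654, 0.0705 and 0.0611) and WT replicate 1 (0.0506). For IAA19 they were all arrays but 4 (exon 1 replicate 2, exon 2 replicate 2 and WT replicates 2 and 3), with an adjusted p up to 0.125, and limma's trend and robust options also ended it (0.0619). IAA12 lost its call without amiNAA10 replicate 2 or 3 (0.163 and 0.107), exon 1 replicate 1 or 3 (0.0647 and 0.0663) or exon 2 replicate 1 (0.0635), and with only the arrays compared (0.0692).

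Genes called lower against WT in both mutants did not all separate the mutants. Between the HYPK mean and amiNAA10, IAA1 differed by 0.48 (interval 0.02 to 0.95, adjusted p = 0.187), IAA8 by 0.17 (interval -0.07 to 0.41), IAA14 by 0.01 (interval -0.58 to 0.59) and IAA27 by -0.01 (interval -0.32 to 0.29). The IAA1 difference passed the threshold without exon 2 replicate 4 (0.61, adjusted p = 0.0438).

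**Figure D3:**
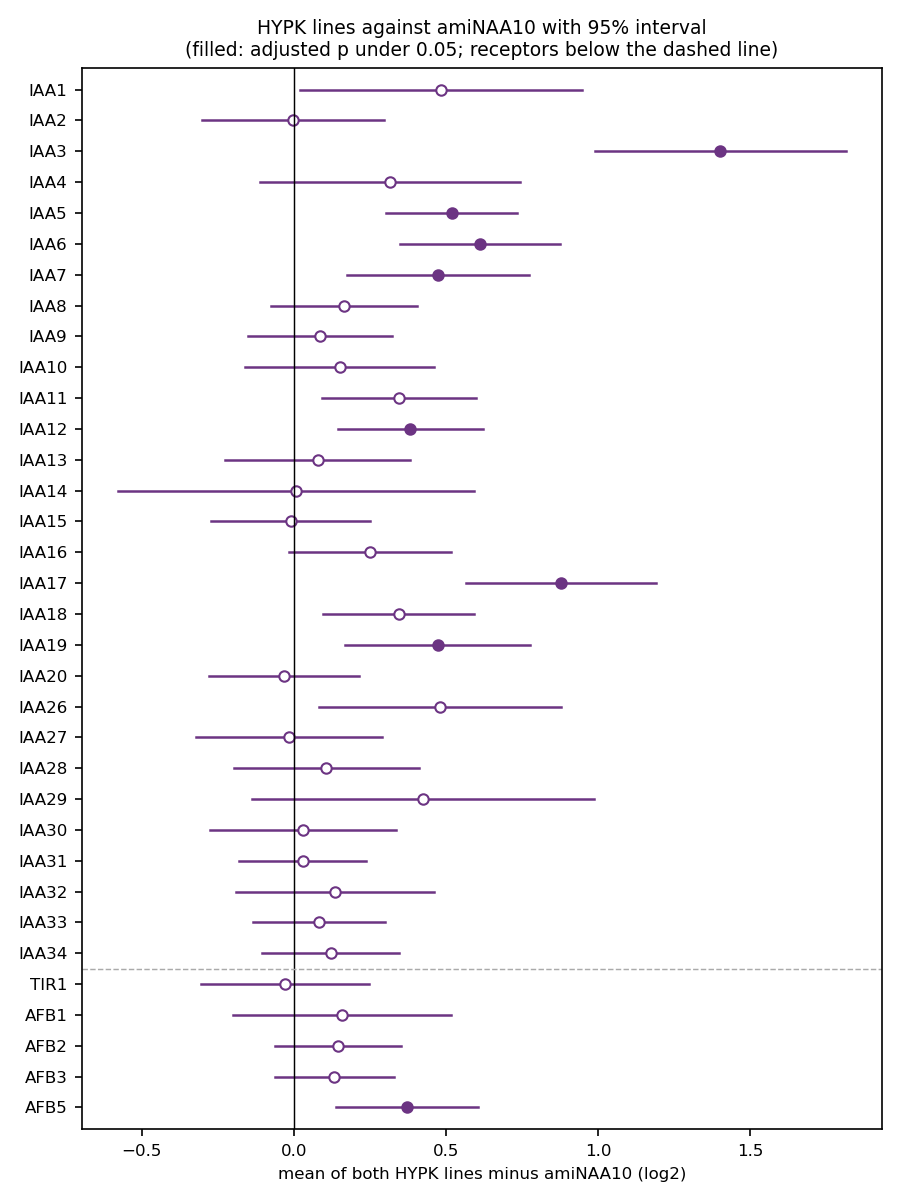
Mean of both HYPK lines minus amiNAA10 on the log2 scale (horizontal axis) for each of the 34 genes (vertical axis), with 95% intervals; filled points had an adjusted p under 0.05 and receptors lie below the dashed line. All 8 filled points are to the right of 0, with IAA3 at 1.40 and IAA17 at 0.88 farthest.

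The HYPK lines were also set against each other. No gene of the 34 was called by limma between the exon 1 and the exon 2 line, where 0.00719% of all probe sets were called, and 2 had an unadjusted p under 0.05. These were IAA4 at -0.58 (unadjusted p = 0.0236) and AFB2 at 0.25 (unadjusted p = 0.0434), and only the AFB2 arrays did not overlap, beside 2.17% of all probe sets (1.03% higher and 1.14% lower in the exon 1 line). Differences of the 34 genes ran from -0.58 to 0.39. The targeted gene HYPK was lower in the exon 1 line by 0.68, and its arrays did not overlap. It too was not called by limma (unadjusted p = 5.48e-05, adjusted p = 0.381), so the lack of calls does not show that the lines are alike.

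Of the 5 receptor genes, AFB2 was called higher in the exon 1 line and in the HYPK mean, and AFB3 was called lower in amiNAA10. AFB2 (AT3G26810) had 6.92, 6.87, 6.79 and 6.85 in WT, 7.35, 7.14, 6.98 and 7.06 in amiNAA10, 7.42, 7.40, 7.41 and 7.37 in the exon 1 line, and 6.86, 7.11, 7.33 and 7.31 in the exon 2 line. The exon 1 arrays were tightly grouped above all others, the amiNAA10 arrays also lay above WT, and exon 2 replicate 1 lay within the WT range. AFB2 was higher by 0.55 in the exon 1 line (SE 0.11, interval 0.31 to 0.78, adjusted p = 0.00313), which is 1.46-fold, and by 0.42 in the mean of both HYPK lines (SE 0.10, adjusted p = 0.00544). The differences in the exon 2 line (0.30, interval 0.06 to 0.54, adjusted p = 0.0917) and in amiNAA10 (0.28, interval 0.04 to 0.52, adjusted p = 0.0757) were not called, and both passed the threshold without exon 2 replicate 1 (0.39, adjusted p = 0.0238, and 0.28, adjusted p = 0.0461).

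AFB3 (AT1G12820) had 6.84, 6.85, 6.72 and 6.77 in WT, 6.68, 6.26, 6.56 and 6.41 in amiNAA10, 6.59, 6.75, 6.61 and 6.62 in the exon 1 line, and 6.68, 6.69, 6.47 and 6.46 in the exon 2 line. All amiNAA10 arrays lay below all WT arrays, the exon 1 line overlapped with both, and the exon 2 arrays lay below WT. The difference of amiNAA10 from WT was -0.32 (SE 0.11, interval -0.55 to -0.10, adjusted p = 0.0294). The call ended without amiNAA10 replicate 2 (-0.25, adjusted p = 0.109) or replicate 4 (0.0688), or WT replicate 1 (0.0671) or 2 (0.0687), and with only the 8 arrays compared in the fit (0.0638).

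TIR1 (AT3G62980), the first receptor found, had 7.62, 7.89, 7.65 and 7.72 in WT, 7.64, 7.31, 7.48 and 7.40 in amiNAA10, 7.58, 7.21, 7.23 and 7.58 in the exon 1 line, and 7.79, 7.59, 7.43 and 7.02 in the exon 2 line. The exon 1 arrays lay just below all WT arrays and the other lines overlapped with WT. Neither the difference of amiNAA10 (-0.26, interval -0.58 to 0.06) nor that of the exon 1 line (-0.32, adjusted p = 0.153) was called. AFB1 (GRH1, AT4G03190), known for rapid auxin responses in roots, had 2.21, 2.10, 2.16 and 2.33 in WT, 2.28, 1.97, 2.29 and 2.07 in amiNAA10, 2.96, 2.07, 1.80 and 2.31 in the exon 1 line, and 2.68, 2.24, 2.03 and 2.40 in the exon 2 line. All 4 genotypes overlapped, and the interval of amiNAA10 minus WT was -0.46 to 0.36.

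AFB5 (AT5G49980), of the receptor branch known to bind the synthetic auxin picloram, had 6.88, 7.03, 6.67 and 6.93 in WT, 6.92, 6.47, 6.45 and 6.48 in amiNAA10, 6.88, 6.65, 6.78 and 7.05 in the exon 1 line, and 7.16, 7.17, 6.98 and 6.96 in the exon 2 line. A set of 3 amiNAA10 arrays lay below all others and replicate 1 lay among the WT arrays. The difference of amiNAA10 from WT was -0.30 (interval -0.57 to -0.03, adjusted p = 0.094), and without amiNAA10 replicate 1 it was -0.41 (adjusted p = 0.0197). AFB5 was higher in the mean of both HYPK lines than in amiNAA10 by 0.37 (adjusted p = 0.0414). That call ended without any of 10 arrays, namely amiNAA10 replicates 2, 3 and 4 (0.141, 0.142 and 0.105), exon 1 replicates 1, 3 and 4 (0.0662, 0.0531 and 0.0717), exon 2 replicates 1, 2 and 3 (0.0686, 0.0702 and 0.05) and WT replicate 1 (0.0527), and it ended with only the arrays compared (0.0583). AFB4, the remaining member of this receptor family, was not among the genes chosen and was called in neither amiNAA10 (-0.04) nor the mean of both HYPK lines (-0.33).

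**Figure D4:**
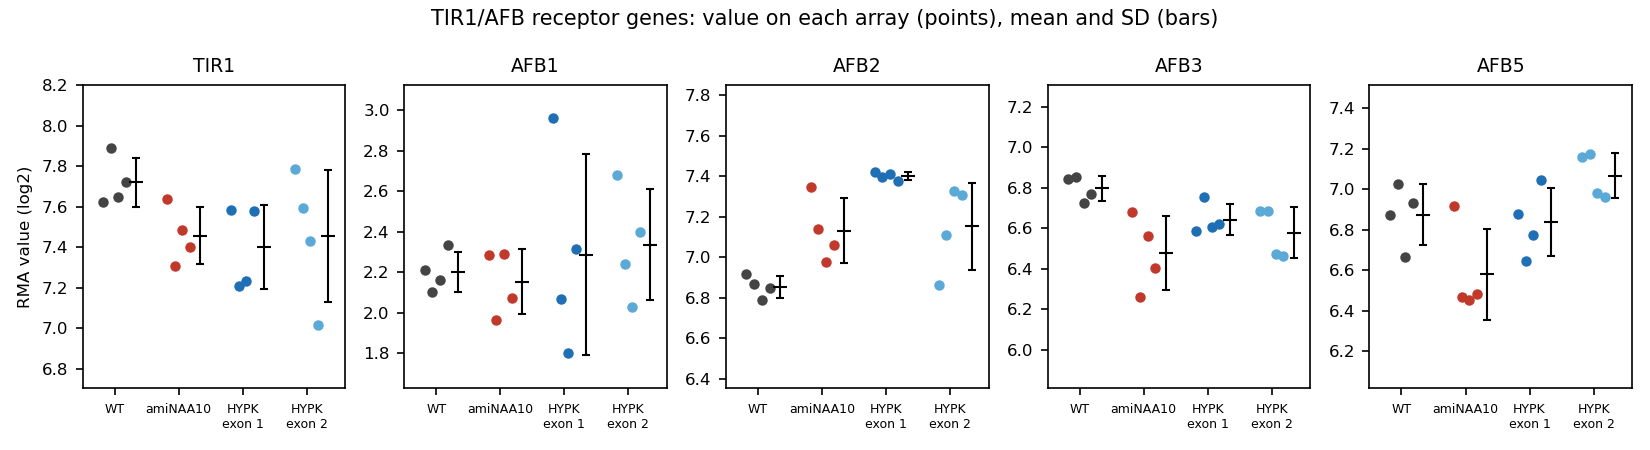
RMA values on the log2 scale (vertical axis) of the 5 receptor genes in each genotype; each point is 1 array, and the bars are the mean and SD of 4 arrays. For AFB2 the exon 1 arrays lie above all WT arrays, and for AFB5 amiNAA10 replicate 1 at 6.92 lies apart from the other arrays of that genotype.

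Close relatives and neighbours did not always carry the same call. IAA1 was called lower in amiNAA10 (-1.73), while its relative IAA2 was not called (0.26, interval -0.08 to 0.61). IAA3 was called lower (-1.77), while its relative IAA4 was not called (-0.29, interval -0.78 to 0.21). In the gene table of the reference assembly TAIR10.1, IAA3 lies beside IAA17, IAA1 beside IAA14 and IAA2 beside IAA7. Both genes of the pairs IAA3 with IAA17 and IAA1 with IAA14 were called lower in amiNAA10, and neither gene of the pair IAA2 with IAA7 was called (IAA7 -0.40, adjusted p = 0.0777). Whether relatives or neighbours differed from each other was not tested, and how far probes of one relative also bind another was not analysed here.

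Other genes of the auxin pathway were counted from lists of 99 genes in all. In amiNAA10 39 of these were called (18 higher, 21 lower), and in the mean of both HYPK lines 31 (15 higher, 16 lower). Of all probe sets 30.7% were called in amiNAA10 (15.4% each way) and 22.7% in the HYPK mean (11.2% higher and 11.5% lower), and these are the shares to set beside each list. Corepressor genes were higher in amiNAA10: all 5 TOPLESS family members were called, with a median difference of 0.70, while 2 of 5 were called higher in the HYPK mean. TPL itself rose by 1.05 in amiNAA10 (SE 0.11, adjusted p = 4.22e-06) and by 0.47 in the HYPK mean (SE 0.09, adjusted p = 0.00184), and the HYPK mean minus amiNAA10 was -0.58 (adjusted p = 0.00118). TPR2 was at 0.70 and TPR1 at 0.70 in amiNAA10, both called, and WSIP2 (TPR4) was at 0.54. In the HYPK mean WSIP2 stood at 0.28 (adjusted p = 0.0337), with a call that ended in 6 of the 16 fits that left out 1 array (adjusted p up to 0.14).

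Among 23 ARF genes, whose products the Aux/IAA proteins bind, 5 were higher and 2 lower in amiNAA10, and 5 higher and 1 lower in the HYPK mean. Counted in either direction, these shares are near those of all probe sets, while most of the ARF calls were higher. NPH4 (ARF7), an activator that IAA19 restrains, rose by 0.99 in amiNAA10 (adjusted p = 7.73e-06) and by 0.60 in the HYPK mean (adjusted p = 0.000339). ARF4 was at 0.70 and 0.39 and ARF17 at 0.81 and 0.50 in the same order, all called; the HYPK calls ended in 1 of 16 fits each, at an adjusted p of 0.0652 and 0.0574. ARF6 rose in amiNAA10 by 0.79 (adjusted p = 0.000922) and not in the HYPK mean (0.03). In the SCF and RUB conjugation list, 4 of 9 were higher in amiNAA10 and 5 of 9 in the HYPK mean, none lower. CUL1, the scaffold of the ligase, rose by 0.69 (adjusted p = 7.61e-05) and 0.54 (adjusted p = 0.000383), and AXR1, an enzyme of RUB conjugation to the cullin, by 0.60 and 0.47. SGT1B, a cochaperone of the receptor complex, rose by 0.81 and 0.79.

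Of 14 transport genes 8 were lower in amiNAA10 and 8 in the HYPK mean, none higher, with median differences of -0.54 and -0.42, beside medians of -0.02 and -0.01 over all probe sets. The other 6 were not called, and the list reached up to 0.20 in amiNAA10 and 0.07 in the HYPK mean. PIN7, an efflux carrier, fell by 1.02 in amiNAA10 (adjusted p = 2.22e-05) and by 0.59 in the HYPK mean (adjusted p = 0.00114). The influx carrier LAX2 fell by 1.09 and by 1.30, and ABCB19, an efflux transporter, by 0.94 and by 0.89. Among 16 SAUR genes, early auxin-induced growth genes with near-identical relatives that probes may not separate, 6 were lower and 1 higher in amiNAA10, and 4 lower and 1 higher in the HYPK mean. SAUR29 fell by 3.08 (adjusted p = 1.71e-05) and by 1.87 (adjusted p = 0.000641). SAUR68 fell by 2.06 and by 1.44. In the HYPK mean the calls of SAUR63 and SAUR24 (adjusted p = 0.0127 and 0.0488) ended in 2 and 11 of the 16 fits without 1 array, at an adjusted p up to 0.0615 and 0.197; SAUR24 also lost it with the trend and robust options (0.0584) and with only the arrays compared (0.0746).

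Of the 10 genes for auxin conjugation and oxidation, 3 were higher and 1 lower in amiNAA10, and 2 were higher in the HYPK mean. Differences in this list ran from -1.02 to 2.11 in amiNAA10 (median 0.34) and from -0.17 to 1.57 in the HYPK mean (median 0.13). WES1 (GH3.5), which conjugates auxin to amino acids, was at 1.03 in amiNAA10 (adjusted p = 0.000836) and 0.53 in the HYPK mean (adjusted p = 0.0354), the latter ending in 5 of 16 fits without 1 array, at up to 0.114. GH3.9 fell by 1.02 in amiNAA10 (adjusted p = 0.00205). Among 14 synthesis genes 1 was lower in amiNAA10 and 2 in the HYPK mean: TAR2 stood at -1.01 and -0.49 and TAA1 at -0.08 and -0.53, TAR2 losing its HYPK call in 13 of 16 fits (up to 0.136) and TAA1 in 2 (up to 0.0692). Of 7 PIF and shade genes 3 were lower in amiNAA10, PIF7 (-0.84), HB-2 (-0.63) and PIF4 (-0.90), and 1 in the HYPK mean, PIF4 (-0.71, adjusted p = 0.0361). PIF4 lost its call in 1 fit of 16 in amiNAA10 (0.0594) and in 8 in the HYPK mean (up to 0.0836). On the higher side, PIF3 stood at 0.60 in amiNAA10 without a call. It was called with only the arrays compared (adjusted p = 0.0188) and without the dimmest 30% of probe sets (0.0451). The same held without WT replicate 1 (0.0206), exon 1 replicate 1 (0.0497) or exon 2 replicate 2 or 4 (0.0269 and 0.0235).

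**Figure D5:**
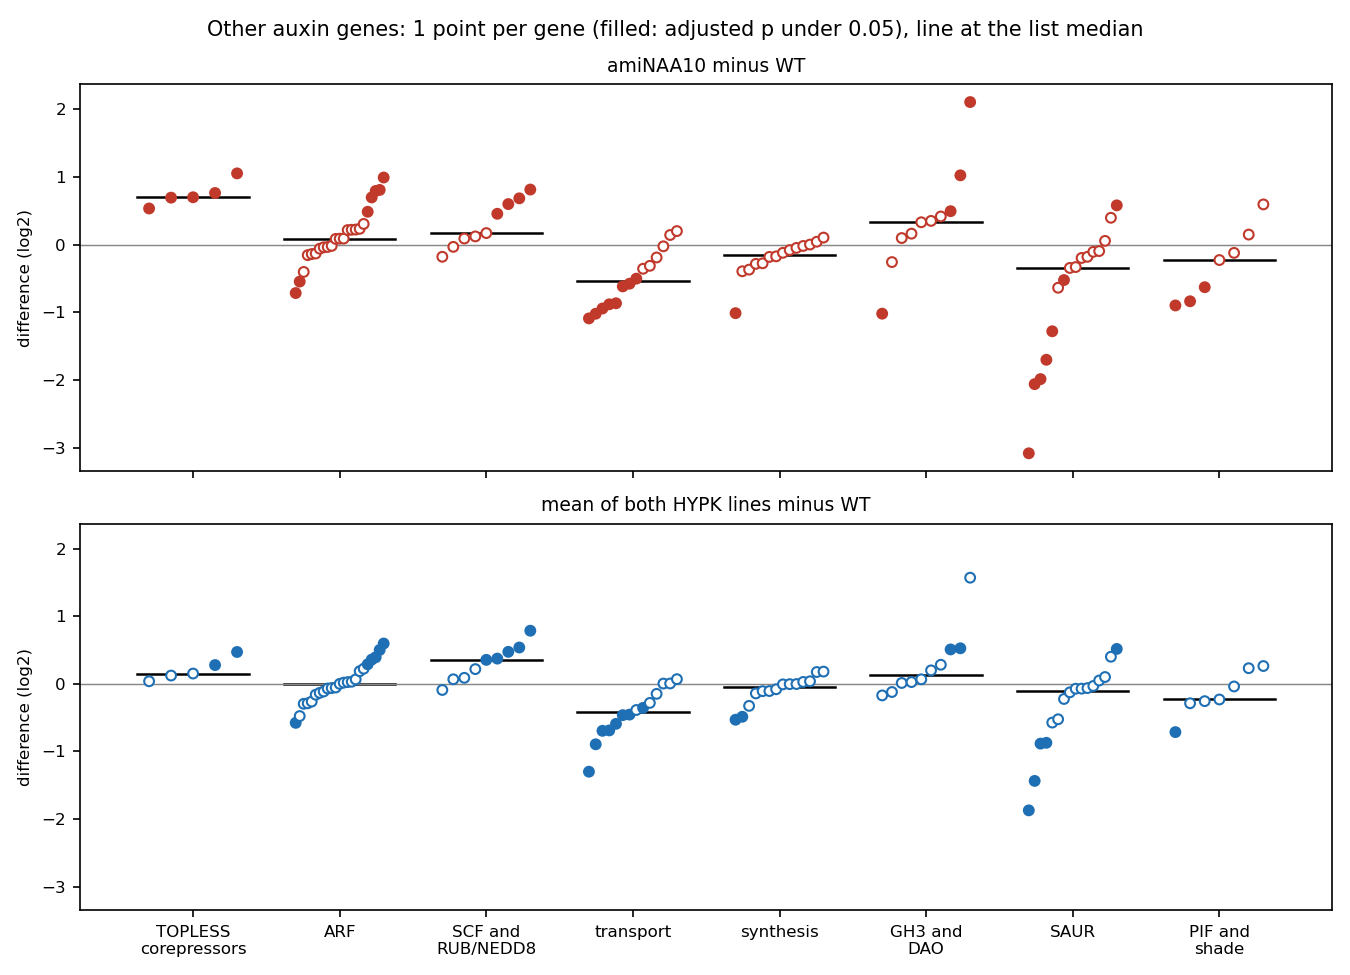
Differences on the log2 scale of the genes of each auxin pathway list in amiNAA10 and in the mean of both HYPK lines, each against WT. TOPLESS corepressor genes lie above 0 in amiNAA10 (median 0.70), and transport genes lie mostly below 0 in both (medians -0.54 and -0.42).

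Markers of leaf cell types moved in the same comparisons as these genes. In amiNAA10 7 of 8 mesophyll markers, 4 of 6 vascular markers and all 4 guard cell markers were called lower, and 1 vascular marker was called higher, beside 15.4% of all probe sets each way. In the HYPK mean the counts called lower were 3 of 8, 3 of 6 and 4 of 4, beside 11.5%. Of the root markers, PYK10 was higher in amiNAA10 by 1.86 (adjusted p = 0.00274) and XTH26 was lower there (-0.50) and in the HYPK mean (-0.40). The flower marker AG was lower in both (-0.41 and -0.43) at means in the dimmest class. Between the HYPK mean and amiNAA10, 5 of 8 mesophyll and 3 of 6 vascular markers were called higher (medians 0.41 and 0.32), beside 5.34% of all probe sets, 1 root and 1 cell division marker were lower, and no guard cell or flower marker was called. The summed level of the vascular markers, on the log2 scale, was 9.52 to 9.64 in WT, 8.65 to 8.94 in amiNAA10, 9.09 to 9.21 in the exon 1 line and 9.07 to 9.23 in the exon 2 line. The summed guard cell level was 7.65 to 8.14 in WT, 6.96 to 7.18 in amiNAA10, 6.996 to 7.21 in the exon 1 line and 7.13 to 7.42 in the exon 2 line. The mesophyll sum was 14.3 to 14.4 in WT and 14.0 to 14.2 in amiNAA10. No mesophyll, vascular or guard cell marker had a mean in the dimmest class, while 2 of 4 root markers did in WT and in amiNAA10. None of the 4 cell division markers was called by limma against WT in amiNAA10 or in the HYPK mean, and 0 had an unadjusted p under 0.05. Of these markers, 3 had a mean in the dimmest class in WT and in the exon 1 line. In the exon 2 line 2 did and in amiNAA10 1, so a difference may be understated. The part of these markers in the differences of the auxin genes was not tested.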

How the data were processed

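Total leaf RNA was hybridised as biotin-labelled cRNA to Affymetrix arrays, per the labels' protocols. The deposited table holds log2 expression values that the authors made with RMA according to the submitters' processing notes. The array's design and the software version were not given in the sources used here. After sorting, no 2 columns differed by over 0.0019 in any row, so a shift of all RNA in one genotype could not be seen. Probe sets are named by locus; symbols came from a RefSeq gene table of TAIR10.1. Arrays have no read depth, and 4 arrays per genotype limit the precision.

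All 16 arrays entered 1 limma model (limma 3.58.1, R 4.3.3) with a mean per genotype and 6 two-sided contrasts, with Benjamini-Hochberg adjustment over 27826 probe sets and a threshold of 0.05. No batch is given in the labels, so none was used. The procedure was also run on simulated data, whose outcome is not given here, and no result rests on it. The 34 genes and all lists were chosen with earlier results of these data known. Values on every array are given for the 5 receptor genes and for up to 16 Aux/IAA genes called in any comparison (15 were called); from each pathway list up to 4 genes with the smallest adjusted p in amiNAA10 or in the mean of both HYPK lines were eligible for naming. Deviations of same-numbered arrays from their genotype means correlated from -0.289 to 0.302 over 24 pairs, with 5 over 0.1. All pairs of replicate 1 were positive (0.014 to 0.268). Replicate numbers were not used as a block in the main model. Alternatives were limma's trend and robust options, array weights, leaving out the dimmest 30% of probe sets, a fit of only the arrays compared, a replicate block, and leaving out each array in turn.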

Additional observations from a re-analysis of the deposited data

Results flagged for a closer look

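In 80 sets of 4 arrays (20 genes in 4 genotypes), 1 array stood far from the rest of its set by Dixon's test of the gap over the range. It was amiNAA10 replicate 1 for AFB5, at 6.92, where the nearest other array was at 6.48. Chance alone gives such an array in about 1 in 20 sets.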

How the results depend on the processing

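No difference changed its sign under an alternative where it was called in that fit or with all arrays. Differences without a call in either were not counted for a change of sign. Of 204 differences of the 34 genes, 42 were called; 26 calls were kept under every alternative run and 16 were lost under at least 1, while 19 of the 162 others were called under at least 1. Leaving out 1 array at a time gave 8 to 15 genes called in amiNAA10 (13 with all arrays) and 4 to 10 in the HYPK mean against amiNAA10 (8 with all arrays). For the 99 pathway genes it gave 4 to 16 called in the exon 2 line (18 with all arrays; 4 without exon 2 replicate 4, 8 without WT replicate 1, 10 without WT replicate 3), 17 to 33 in the HYPK mean against WT (31; 17 without WT replicate 1 or 2, 18 without WT replicate 3) and 8 to 17 in the HYPK mean against amiNAA10 (15; 8 without amiNAA10 replicate 2 or 3). A fit of only the arrays compared gave 8 pathway genes in the exon 2 line. With a replicate block, 12 of the 34 genes were called in amiNAA10, 7 in the HYPK mean against amiNAA10 and 6 in the exon 2 line. That block ended the calls of IAA28 in amiNAA10 (0.056), IAA13 in the exon 2 line (0.0527) and IAA7 in the HYPK mean against amiNAA10 (0.0617), and added IAA14 in the exon 2 line (0.0346). Genes in the dimmest class may differ by more than the values show.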
